A study of Bos taurus with 6 samples.

Results

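The intramuscular fat (IMF) mRNA of Qinchuan cattle was compared between castrated males (steers) and intact males (bulls), with 1 pooled library a side. Genes entered the comparison when their counts in both pools together reached 10, which kept 14540 of the 25444 genes in the table. A further 3212 genes had 1 to 9 counts in all and 7692 had none. At the limit, 133 genes had exactly 10 counts and 142 had exactly 9. All animals were males weaned at 3 mo and slaughtered at 24 mo on the same diet, and the steers were castrated by surgery at 6 mo. The fat was dissected from the sternomandibularis, a neck muscle, and its RNA was pooled before sequencing on an Ion Proton instrument. The series design gives 6 animals to each pool, whereas the sample labels give 3. The animals are described as offspring of a shared sire, so each pool stands for related animals and the spread between animals was not measured.

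IMF is the depot of adipocytes that lies between the bundles of a muscle and gives beef its marbling. Adipocytes build triglyceride from fatty acids that they take up or make themselves, and they sit in a bed of collagen, vessels, nerves and resident immune cells, with muscle fibres at the edge of any dissection. Castration removes the testes, the main source of testosterone, and steers of many breeds lay down more marbling than bulls.

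The counts summed to 12677375 in steers and 9868415 in bulls. Differences are given as the log2 ratio of steers over bulls after scaling by median-of-ratios size factors (1.04 and 0.959), so a positive value is higher in steers. Their intervals are 95% intervals and cover only the error of counting, as PCR copies are not separate molecules and a single pool has no replicate. A gene was called past 2-fold when its log2 ratio exceeded 1 in size, and clear of 2-fold when its whole interval lay beyond that line. Gene lengths were not given, so levels were not compared between genes beyond their share of the reads. Scaling by total counts instead lowered all log2 ratios by about 0.24 and put the median of all genes at -0.23, compared with 0.01.

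A check of the labels came first, because the pool labelled castrated held transcripts of late spermatids, the cells in which sperm take shape in the testis. A list of 50 such genes was written after the counts had been seen, and 48 of them were in the table. Reads fell on 45 of these in the pool labelled castrated and on 14 in the pool labelled intact, 1045 reads and 28 reads in all. Of these genes 31 were counted in steers alone and 0 in bulls alone. PRM1, the protamine that packs sperm DNA, had 328 counts in steers and 0 in bulls. That is 100-fold higher when 3 counts are taken as the floor of a library, and its interval began at a log2 ratio of 6.34. ODF1, of the outer dense fibres of the sperm tail, had 53 counts and 0. TNP1, a transition protein that precedes the protamines on DNA, had 29 counts and 0. AKAP4, of the fibrous sheath of the tail, was counted in both pools with 37 and 3 reads. Among the 20 genes plotted, AKAP3 had the most counts in bulls, with 25 in steers and 4 in bulls.

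**Figure D1:**
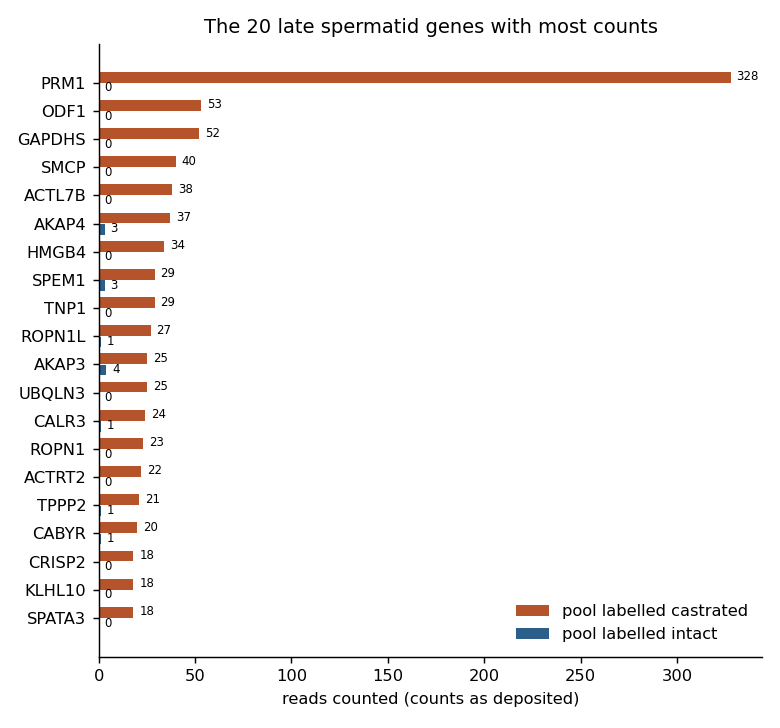
Counts as deposited (x axis) of the 20 late spermatid genes with most counts, in the pool labelled castrated (brown) and the pool labelled intact (blue), with each count beside its bar. PRM1 stood at 328 against 0, and the next gene, ODF1, at 53 against 0.

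Earlier germ cells left little trace, since 10 genes of spermatogonia and meiosis had 17 reads in steers and 2 in bulls. Of the somatic cells of the testis, 14 Leydig and Sertoli cell genes had 172 and 41 counts. LHCGR, the receptor for luteinizing hormone, made up most of these with 119 in steers and 20 in bulls. CYP17A1, a steroid hydroxylase, had 34 and 7. CYP11A1 and HSD3B1, which begin steroid synthesis in Leydig cells, had 0 counts in both pools. The late spermatid genes held 0.00824% of all reads in steers. Of these genes 29 reached the sum of 10, nearly all through their counts in steers, so that a ratio above 0 was largely fixed by the choice of list. Without the list, 951 genes instead of 979 (6.73% of those measured) were past 2-fold and higher. The list may not hold all transcripts of this kind. Of the 20 genes with most counts among those counted in steers alone, 6 were in it. Both pools expressed genes of the Y chromosome, with 466 counts in steers and 323 in bulls for DDX3Y and 331 and 318 for USP9Y. The labels are used below as they stand. Whether the labels of the pools were exchanged, which would turn each direction given here, or whether another tissue or animal entered the library labelled castrated, was not tested.

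The tissue label was checked against markers. ADIPOQ, PLIN1, CIDEC and LIPE, all genes of mature adipocytes, had between 4499 and 9931 counts in steers and between 4890 and 7501 in bulls. The adipocyte list as a whole, with 15 genes measured, nevertheless took only 0.404% of counts in steers and 0.479% in bulls. Muscle fibre genes took 0.347% and 0.651%, and 12 endothelial genes 0.0922% and 0.110%. More reads fell on connective tissue genes, with 11.4% of steers' counts and 6.73% of bulls' on 13 fibrillar and basement membrane collagens and 8.31% and 7.27% on 21 other matrix genes.

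The make-up of each pool was steep. In steers 192 genes held 50% of the counts and 3862 genes held 90%. In bulls it took 301 and 4534 genes. A single gene took 3.20% of the steers' counts (COL3A1) and 1.94% of the bulls' (GSN). The top 10 genes held 18.8% and 13.0%, the top 100 held 41.4% and 35.3%, and the top 1000 held 71.8% and 67.1%. Steers therefore had more of their reads on fewer genes at each of these ranks.

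**Figure D2:**
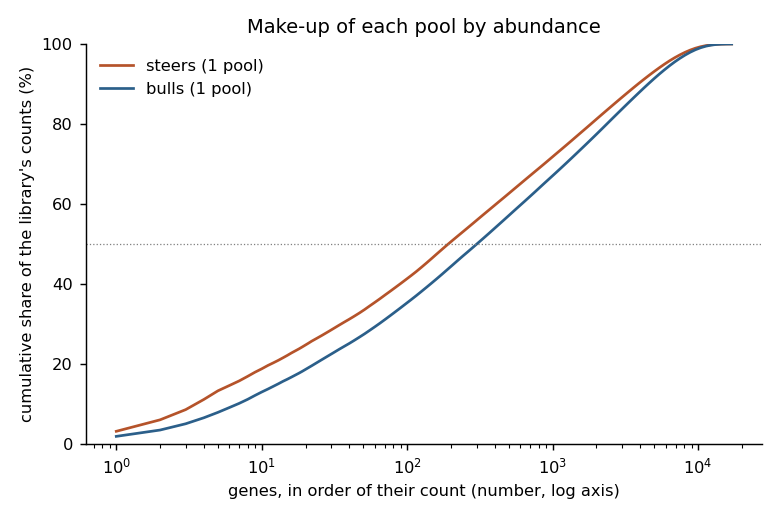
Cumulative share of each library's counts (y axis, %) held by its genes in order of count (x axis, log scale) in steers (brown) and bulls (blue). The curve of steers lies above that of bulls, with 50% of counts reached at 192 and at 301 genes.

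The leading genes were mostly the same. Of the top 10 in each pool 8 were shared, and of the top 100, 76. GSN, an actin-severing protein that is also secreted, had 363748 counts in steers and 191041 in bulls (log2 ratio 0.81, 0.80 to 0.81). COL1A2, a chain of type I collagen, had 322757 and 155951 counts (log2 ratio 0.93, 0.92 to 0.94). FMOD, a small proteoglycan that binds collagen fibrils, had 169037 and 102586 (0.60, 0.59 to 0.61). BGN, another such proteoglycan, had 132710 and 71059 (0.78, 0.77 to 0.79). MYOC, an extracellular glycoprotein, was the fifteenth gene of steers with 76737 counts and had 39615 in bulls (0.83, 0.81 to 0.85).

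Other leading genes did not follow the collagens. VIM, the intermediate filament of mesenchymal cells, had 105796 and 98846 counts (-0.02, -0.04 to -0.01). THBS4, a matrix glycoprotein of tendon and muscle, was lower in steers, with 104300 and 133605 counts (-0.48, -0.49 to -0.47). THBS1, which binds and activates latent growth factors in the matrix, had 30164 counts in steers and 61472 in bulls (-1.15, -1.17 to -1.13). It ranked 14 in bulls and 39 in steers. EEF2, an elongation factor of translation, had 64595 and 51885 counts (0.19, 0.18 to 0.21), and this small difference was near the shift between scalings.

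Between the pools, 979 genes were past 2-fold and higher in steers, 6.73% of those measured, and 1679 were past 2-fold and lower, 11.5%. The whole interval lay beyond 2-fold for 376 higher genes (2.59%) and 772 lower genes (5.31%). The remaining 11882 genes were within 2-fold. With scaling by total counts the split was 705 higher and 2221 lower, or 24.1% higher instead of 36.8%. No test of castration was possible, because each side was 1 library. Markers of other cell types differed between the pools too. The summed counts were 269 in steers and 2066 in bulls for 18 T lymphocyte genes, 36477 and 94283 for 16 myeloid genes, 43961 and 64279 for 20 muscle fibre genes, and 439 and 61 for 11 epithelial genes. Their part in the differences of other genes was not tested.

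**Figure D3:**
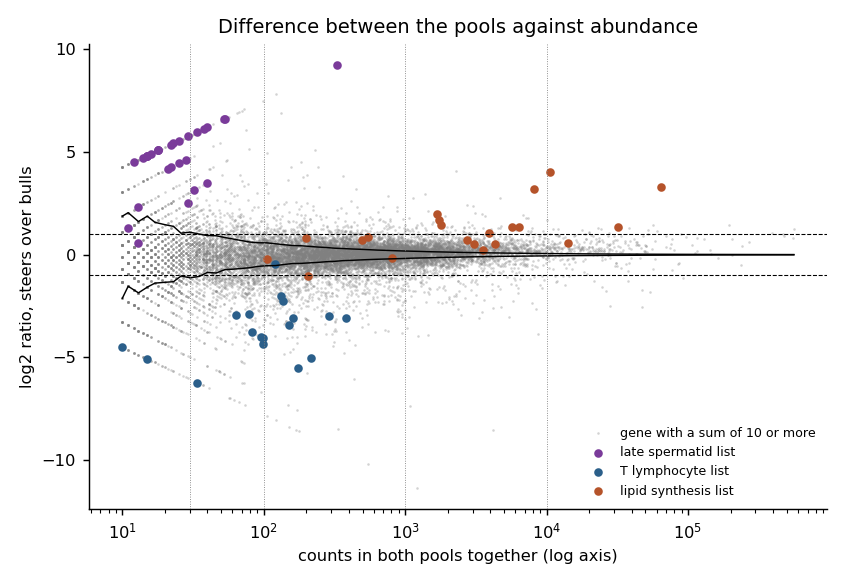
Log2 ratio of steers over bulls (y axis) against the counts in both pools together (x axis, log scale) for 14540 genes (grey). Black curves bound 95% of counting error around no difference, dashed lines mark 2-fold, dotted lines divide the abundance classes, and coloured points are members of 3 lists. Late spermatid genes lie high at low counts, lipid synthesis genes reach high ratios at high counts, and T lymphocyte genes lie low.

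The share of genes past 2-fold depended on abundance. Among the 1668 genes with 10 to 29 counts, 383 were higher and 498 lower past 2-fold, yet only 117 and 131 were clear of it. Their counting intervals were wide, with a median half-width of 1.76 on the log2 scale. Among the 2408 genes with 30 to 99 counts, 251 were higher and 483 lower (75 and 187 clear). The 7276 genes with 100 to under 1000 counts formed the largest class, with 230 higher and 572 lower (101 and 351 clear). Of the 2887 genes with 1000 to under 10000 counts, 93 were higher and 111 lower (63 and 89 clear), and the median half-width had shrunk to 0.14.

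The balance turned in the highest class. Of 301 genes with 10000 counts or more, 22 were past 2-fold and higher in steers and 15 were lower, and their median log2 ratio was 0.30. The class medians were -0.12, -0.16, -0.01, 0.13 and 0.30 from the lowest to the highest abundance. Total-count scaling left 11 higher and 18 lower in the highest class, so which side was larger there depended on the scaling. This class held 55.8% of steers' counts and 49.6% of bulls'.

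**Figure D4:**
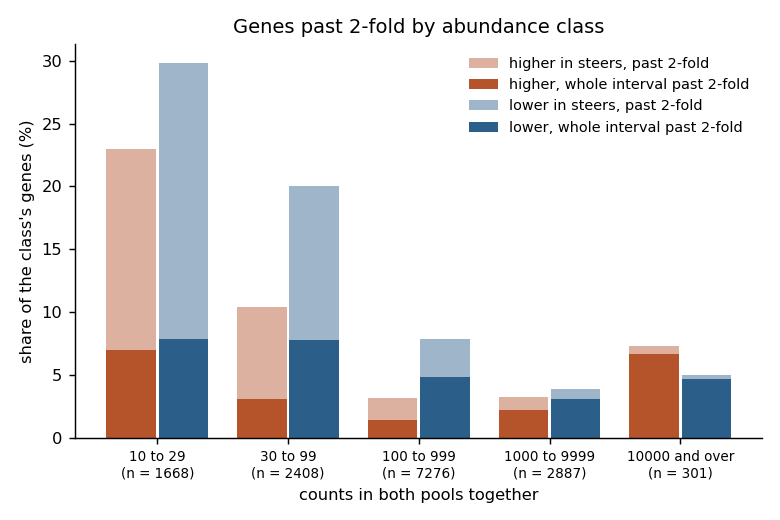
Share of the genes of each abundance class (y axis, %) that were past 2-fold, higher (brown) or lower (blue) in steers, with the darker part clear of 2-fold by counting error. Shares fall from 23.0% and 29.9% at 10 to 29 counts to 3.22% and 3.84% at 1000 to under 10000 counts, and are 7.31% and 4.98% at 10000 or more.

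The extremes of each class were taken among genes clear of 2-fold. In the 2 lowest classes the highest genes were counted in steers alone. They included TNP1, of the late spermatid list, with 29 counts, GSG1 with 98 and TUBA3E, a tubulin, with 73. KIF17, a kinesin motor, had 70 counts in steers and 0 in bulls. GSG1, TUBA3E and KIF17 are not in the late spermatid list. Whether they share the source of its transcripts was not tested. The lowest genes there were counted in bulls alone. MZB1, a chaperone of antibody-secreting cells, had 0 counts in steers and 74 in bulls. Against a floor of 3 counts it was 26.8-fold lower, and its interval ended at a log2 ratio of -4.41. CORIN, a protease that processes natriuretic peptides, had 0 and 67. In the classes of 1000 counts and more the highest were mostly genes of fatty acid synthesis and uptake, among them ACACA, the carboxylase that makes malonyl-CoA, with 7423 counts in steers and 735 in bulls (log2 ratio 3.21, 3.10 to 3.33).

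The lowest genes of the higher classes included genes of antigen presentation and of cartilage and tendon matrix. VL1X, a symbol not matched to RefSeq here, had 0 counts in steers and 1212 in bulls, the most of any gene counted on 1 side alone. Against a floor of 3 counts it was 440-fold lower in steers, and its interval ended at a log2 ratio of -8.48. BOLA, a class I histocompatibility gene of cattle, had 7403 counts in steers and 40199 in bulls (-2.56, -2.60 to -2.53). COMP, a matrix protein of cartilage and tendon, had 4459 and 23516 (-2.52, -2.57 to -2.47). DMBT1, a secreted scavenger protein of mucosae, had 0 and 152. Of all measured genes, 109 were counted in steers alone and 69 in bulls alone.

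Gene lists were described by the number of measured members past 2-fold, for comparison with 6.73% of all genes higher and 11.5% lower. Of 21 genes of fatty acid and triglyceride synthesis, 10 were higher and 1 was lower, with a median log2 ratio of 0.88. ELOVL6, which lengthens saturated fatty acids, had 1368 counts in steers and 322 in bulls (1.96, 1.79 to 2.14). LPIN1, a phosphatidate phosphatase of triglyceride assembly, had 4683 and 1682 (1.36, 1.27 to 1.44). ACACB, the mitochondrial carboxylase whose product restrains fatty acid oxidation, was the lower one, with 72 and 135 counts (-1.03, -1.46 to -0.61), and it was not clear of 2-fold. SREBF1 and MLXIPL, transcription factors of lipid synthesis, were within 2-fold, with 1999 and 1548 counts for SREBF1 and 51 and 55 for MLXIPL. DGAT1 was also within 2-fold, with 401 and 410 counts. Synthesis genes held 1.05% of steers' counts and 0.332% of bulls', and FASN held the largest part.

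**Figure D5:**
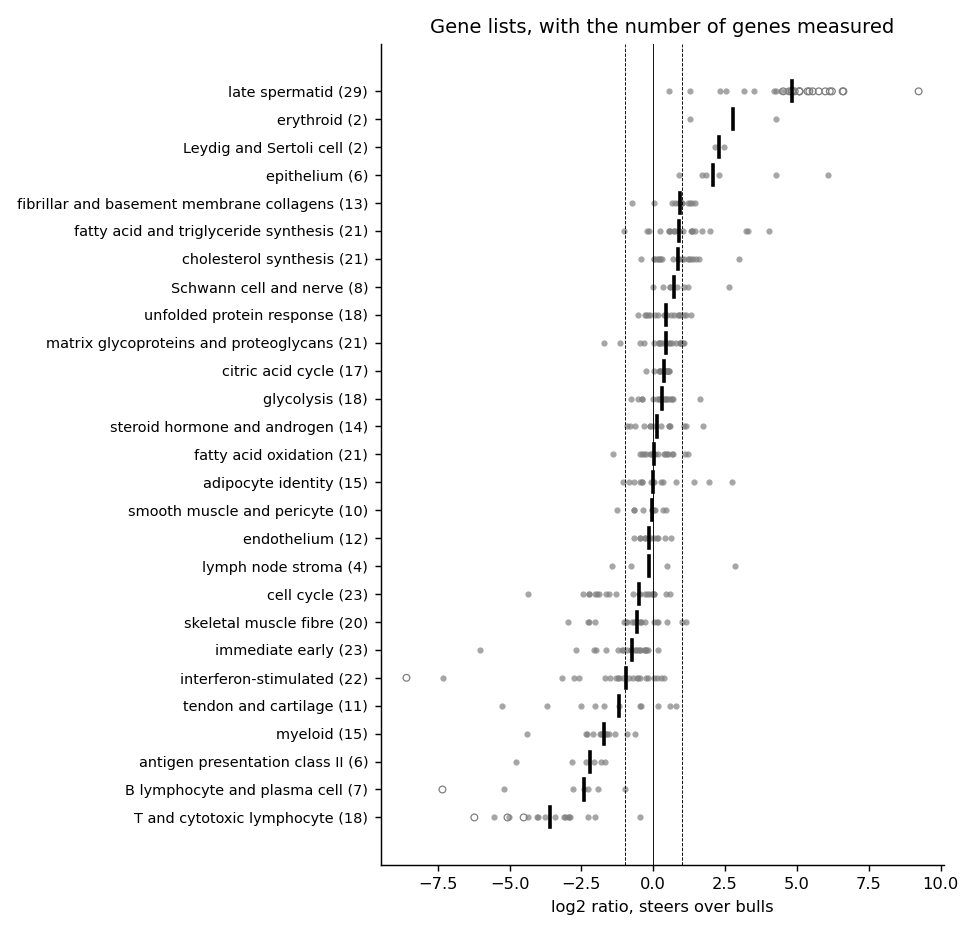
Log2 ratio of steers over bulls (x axis) of each measured gene (points) in the gene lists (rows), with the number measured in brackets and a bar at the median. Open circles are genes with 0 counts in 1 pool, whose ratio depends on the prior of 0.5 counts, and dashed lines mark 2-fold. Medians run from -3.60 for T lymphocyte genes to 4.83 for late spermatid genes, or -3.08 and 2.82 with genes at 0 placed at their bound.

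Central carbon metabolism differed less. All 17 measured genes of the citric acid cycle were within 2-fold, as were 11882 of all 14540 genes. Their median was 0.38, and 16 of the 17 lay above 0, compared with 7403 of all genes. Total-count scaling lowers these ratios by about 0.24, so the number above 0 depended on the scaling. MDH2, the mitochondrial malate dehydrogenase, had 3017 counts in steers and 2166 in bulls (0.36, 0.28 to 0.44). SUCLG2, a subunit of succinate-CoA ligase, lay below 0 with 452 and 500 counts. Of 18 glycolytic genes 1 was past 2-fold, SLC2A1, the glucose carrier of most cells, with 557 and 167 counts (1.62, 1.36 to 1.87). SLC2A4, the carrier that responds to insulin, had 291 and 172 counts (0.64, 0.36 to 0.92). LDHA had 316 and 422 counts and ALDOC 360 and 560, both within 2-fold and below 0. The median of the glycolytic genes was 0.31.

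Most genes of the respiratory chain were also within 2-fold. Of 34 genes taken as complex I subunits by their symbols, 2 were past 2-fold and higher. Of 17 ATP synthase subunits 0 were past 2-fold in either direction. The medians of the complex I and ATP synthase genes were 0.35 and 0.31. The complex I symbols took in NDUFA4L2, with 512 counts in steers and 144 in bulls (1.71, 1.44 to 1.98). It was the only 1 of the 34 clear of 2-fold, and its symbol alone does not make it a subunit. Of 16 genes taken as cytochrome c oxidase subunits by their symbols, 2 were past 2-fold and higher and 0 lower, with a median of 0.21. These were COX7C, with 410 counts in steers and 121 in bulls (1.64, 1.34 to 1.94), and COX6B2, an isoform best known from testis, with 11 and 1 (3.34, 0.55 to 8.76). The symbols also took in COX4NB, which is no subunit. Of 21 genes of fatty acid oxidation, 2 were higher and 1 was lower. ECHS1, the enoyl-CoA hydratase of the mitochondrial spiral, was higher with 4384 and 1724 counts (1.22, 1.14 to 1.31). DECR1, which handles unsaturated fatty acids, had 253 and 108 (1.11, 0.78 to 1.44). HADHA, a subunit of the trifunctional protein, had 2481 and 2248 counts (0.02, -0.06 to 0.10). The median was 0.02 and became -0.22 with total-count scaling, so no direction is given.

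Adipocyte identity genes went in both directions, 3 higher and 1 lower of 15, with 7 above 0 and 8 below. THRSP, a nuclear protein of lipogenic tissues, had 5537 counts in steers and 1328 in bulls (1.94, 1.85 to 2.03). CIDEA, a lipid droplet protein, had 998 and 136 (2.75, 2.49 to 3.02). GPD1, which supplies glycerol phosphate, had 3529 and 1213 (1.42, 1.32 to 1.51). LEP, the leptin gene, had 1272 and 1153 counts (0.02, -0.10 to 0.14), and LIPE, the hormone-sensitive lipase, had 5234 and 4890 (-0.02, -0.08 to 0.03). The lower gene was FABP4, a fatty acid binding protein, with 3951 and 7574 counts (-1.06, -1.12 to -1.01). ADIPOQ was within 2-fold and below 0 with 4513 and 6651 (-0.68, -0.74 to -0.63). CEBPA, a transcription factor of adipocyte differentiation, was also within 2-fold and below 0 with 409 and 668.

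Cholesterol synthesis had 8 of 21 genes past 2-fold and higher and 0 lower, with a median of 0.85. SQLE, the squalene epoxidase, had 115 counts in steers and 35 in bulls (1.59, 1.04 to 2.18). MVD, which makes isopentenyl diphosphate, had 303 and 108 (1.37, 1.04 to 1.70). SREBF2, the transcription factor of the pathway, had 1329 and 1035 counts (0.24, 0.12 to 0.36), a value near the shift between scalings.

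Collagen chains differed in both directions. Over all 32 measured chains, 6 were past 2-fold and higher and 9 lower, and together they held 11.6% of steers' counts and 6.90% of bulls'. Most of the higher ones were abundant chains, such as COL3A1 and COL6A1. COL5A1, which sets fibril diameter, had 4091 counts in steers and 1461 in bulls (1.36, 1.28 to 1.45). COL21A1, a minor fibril-associated chain, had 745 and 136 (2.33, 2.07 to 2.61), the highest ratio of the family. The basement membrane chain COL4A1 had 22702 and 10932 (0.93, 0.90 to 0.97) and was within 2-fold.

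The lower collagens named here were scarce. COL2A1, the main collagen of cartilage, had 30 counts in steers and 113 in bulls (-2.04, -2.67 to -1.44). COL11A2, its fibril partner, had 2 and 71 (-5.27, -8.35 to -3.37). COL22A1, of the junction between muscle and tendon, had 1 and 48 (-5.71, -11.04 to -3.16). COL4A5 and COL4A6, minor basement membrane chains, had 62 and 150 and 42 and 113 counts. Among the list of 13 fibrillar and basement membrane collagens 5 were higher and 0 lower, and COL12A1 was the one below 0, with 30393 and 46249 counts (-0.73, -0.75 to -0.71).

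Other matrix genes were mixed, 2 higher and 2 lower of 21, with a median of 0.44. TNC, a glycoprotein of tendon and of loaded or healing tissue, was the lowest with 11802 counts in steers and 35439 in bulls (-1.71, -1.74 to -1.68). LUM, a proteoglycan of fibrils, had 14023 and 6692 (0.95, 0.90 to 0.99). ELN, the elastin gene, had 24463 and 14277 (0.65, 0.62 to 0.68). IGFBP6, the most abundant of 6 binding proteins of insulin-like growth factors, had 32599 and 15796 (0.92, 0.90 to 0.95), and 0 of the 6 were past 2-fold.

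Of 18 genes of the unfolded protein response, which adjusts the folding of secretory proteins, 3 were past 2-fold and higher and 0 were lower, with a median of 0.45. HYOU1, a chaperone of the endoplasmic reticulum, had 1070 counts in steers and 471 in bulls (1.06, 0.90 to 1.22). HSPA5, the main chaperone of that compartment, had 3407 and 1699 (0.88, 0.80 to 0.97). CALR, a calcium-binding chaperone, had 8092 and 3924 (0.92, 0.87 to 0.98). The stress transcription factors ATF4 and DDIT3 were within 2-fold and slightly below 0, with 4781 and 4716 counts for ATF4 and 279 and 294 for DDIT3. In a scan of 146 symbol stems with 10 or more members, HSPA had the highest median, 0.48 over 13 genes, followed by FKBP at 0.45 over 14. FKBP10, which assists collagen folding, had 5991 and 2879 counts (0.94, 0.87 to 1.00).

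Translation genes were narrow. Of 79 cytosolic ribosomal protein genes 75 were within 2-fold, and they held 6.22% of steers' counts and 6.24% of bulls'. The median log2 ratio was 0.24 with median-of-ratios scaling and close to 0 with total counts. RPS26 stood outside, with 4119 counts in steers and 565 in bulls (2.74, 2.62 to 2.87). Ribosomal protein genes have many processed copies, so reads could have been split between copies. All 56 translation factors were within 2-fold.

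Skeletal muscle fibre genes were lower in 5 of 20 and higher in 1, with a median of -0.57. The 4 that were also clear of 2-fold were slow-twitch isoforms. MYH7, the slow myosin heavy chain, had 675 counts in steers and 2906 in bulls (-2.23, -2.35 to -2.11). MYL3, a slow myosin light chain, had 66 and 470 (-2.95, -3.35 to -2.58). MYL2, the slow regulatory light chain, had 1060 and 4711 (-2.27, -2.37 to -2.18). TNNT1, the slow troponin T, had 485 and 1801 (-2.01, -2.16 to -1.87).

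Fast-twitch isoforms went in both directions. MYH1, a fast myosin heavy chain, had 247 counts in steers and 102 in bulls (1.15, 0.82 to 1.50). TNNC2, the fast troponin C, had 1583 and 729 (1.00, 0.87 to 1.13) and lay at the line. MYH2, the other fast chain measured, had 5396 and 4929 (0.01, -0.05 to 0.06). MYL1, the fast alkali light chain, was within 2-fold and below 0 with 624 and 954 (-0.73, -0.88 to -0.59), as was ATP2A1, the calcium pump of fast fibres, with 1990 and 2241 (-0.29, -0.38 to -0.21). Genes shared by both fibre types were below 0, as for ACTA1 with 13852 and 19910 counts (-0.65, -0.68 to -0.61). Fewer cells of a type and less RNA per cell cannot be told apart in pooled tissue, here or for any list that follows.

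Several immune families were lower in steers. By symbol stem the lowest medians were those of CD (-1.93 over 67 genes), CLEC (-1.42 over 17), RGS (-1.23 over 16), IL (-0.89 over 37) and CCL (-0.79 over 11). RGS, the regulators of G protein signaling, is not an immune family. In CLEC 14 genes lay below 0 and 3 above. Its summed counts were nevertheless higher in steers, 16217 against 9474, mostly through CLEC3B with 15334 and 8120. Of 59 CD antigens 38 were lower and 0 higher. All 11 class I and II histocompatibility genes with BoLA or HLA symbols were lower, with a median of -2.56, and their share of counts was 0.113% in steers and 0.687% in bulls. CIITA, the activator of class II genes, had 132 counts in steers and 503 in bulls (-2.05, -2.34 to -1.77). BOLA-DQB, a class II chain, had 469 and 3031 (-2.81, -2.96 to -2.67). Histocompatibility genes are close copies of each other, so their separate counts are uncertain.

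Receptors of leukocytes were lower as families. Of 12 chemokine receptors 11 were lower and 0 higher, with a median of -2.46. CXCR4, which guides leukocytes and progenitors, had 186 counts in steers and 812 in bulls (-2.25, -2.49 to -2.02). CCR7, which guides cells to lymph nodes, had 2 and 31 (-4.08, -7.18 to -2.10). Of 8 Toll-like receptors 4 were lower, TLR7, a sensor of viral RNA, the furthest with 6 and 147 (-4.74, -6.21 to -3.58). TLR3 was within 2-fold with 71 and 78 counts. Of 9 Fc receptors 7 were lower, and all 6 GIMAP GTPases, which are lymphocyte survival genes, were lower with a median of -4.27.

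Cytotoxic and T lymphocyte genes had the lowest list median, -3.60, or -3.08 with the 3 genes at 0 counts placed at their bound. Of 18 genes 17 were lower. PRF1, the pore protein of cytotoxic cells, had 7 counts in steers and 208 in bulls (-5.02, -6.35 to -3.95). NKG7, of their granules, had 44 and 338 (-3.06, -3.55 to -2.61). CD247, a signaling chain of the T cell receptor, was the exception within 2-fold, with 53 and 67. The list took 0.00212% of counts in steers and 0.0209% in bulls. Of 7 measured genes of the B lymphocyte and plasma cell list 6 were lower, with a median of -2.40. The genes of this list had few reads, but it leaves out antibody genes, and IGLL1, an immunoglobulin lambda-like gene, had 12 counts in steers and 4174 in bulls (-8.56, -9.52 to -7.76). BLNK, an adaptor of the B cell receptor, had 28 and 123 counts (-2.26, -2.90 to -1.66), and MS4A1 and CD79B, which define B cells, had 0 in both pools.

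Myeloid genes were lower in 13 of 15, with a median of -1.70. C1QA, a complement subunit made by tissue macrophages, had 3487 counts in steers and 8137 in bulls (-1.34, -1.40 to -1.29). CSF1R, the macrophage growth factor receptor, had 7057 and 12309 (-0.92, -0.97 to -0.88) and was within 2-fold. The integrins of leukocytes were lower, ITGAL with 13 and 184 counts and ITGB2 with 304 and 1390, among 7 of 25 integrin subunits. Of 36 proteasome subunits the 2 past 2-fold were PSMB8 and PSMB9, the catalytic subunits exchanged in immune cells or under interferon. PSMB8 had 235 and 862 counts (-2.00, -2.21 to -1.79) and PSMB9 had 121 and 471 (-2.08, -2.38 to -1.79).

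Not all immune-related genes were lower in steers. S100A8 and S100A9, calcium-binding proteins of neutrophils, were higher, with 95 and 8 counts for S100A8 (3.45, 2.41 to 4.70) and 149 and 29 for S100A9 (2.24, 1.66 to 2.87). CXCL13, a chemokine of B cell follicles, had 55 and 7 counts (2.85, 1.71 to 4.23). HBB, of red cells, had 21 and 1 counts, and 7 of the 9 erythroid genes in the table had fewer than 10 reads. IL33, an alarm cytokine of stromal cells, was lower with 52 and 286 (-2.58, -3.04 to -2.15).

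Interferon-stimulated genes were uneven, 11 of 22 lower and 0 higher, with a median of -0.94. CXCL9, a chemokine induced by interferon gamma, had 1 count in steers and 147 in bulls (-7.32, -12.64 to -4.82). IFI6 had 375 and 1115 (-1.69, -1.87 to -1.52). MX1, a classical target of type I interferon, was within 2-fold and above 0 with 325 and 232 counts (0.36, 0.12 to 0.61). ISG15 was within 2-fold with 43 and 58.

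Dividing cells were marked by mitotic genes, and 10 of 23 cell cycle genes were lower with 0 higher. MKI67, a nuclear protein of cycling cells, had 144 counts in steers and 629 in bulls (-2.25, -2.52 to -1.99). TOP2A, a topoisomerase of mitotic chromosomes, had 28 and 120 (-2.22, -2.87 to -1.62). RRM2, of nucleotide synthesis for replication, had 33 and 123 (-2.02, -2.62 to -1.46). The replication licensing helicase was level, and 0 of 9 minichromosome maintenance genes were past 2-fold, as for MCM7 with 2171 and 1953 counts. The D cyclins CCND1 and CCND2 were above 0, with 480 and 326 counts and with 172 and 106.

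Immediate early genes, which are induced within minutes by stimuli, including tissue handling, were lower in 8 of 23 and higher in 0, with a median of -0.74. FOS, the most abundant of those past 2-fold, had 3029 counts in steers and 6525 in bulls (-1.23, -1.29 to -1.17). DUSP2, a phosphatase also abundant in leukocytes, was the lowest with 7 and 426 (-6.05, -7.37 to -4.99). ATF3 had 62 and 364 (-2.68, -3.09 to -2.28). EGR1 was within 2-fold with 1638 and 2569 (-0.77, -0.86 to -0.68), and MYC had 3475 and 3618 (-0.18, -0.25 to -0.11). The time from slaughter to freezing was not given, and its part in these values was not tested.

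Steroid hormone genes were measured in 14 of 19, with 3 higher and 0 lower. ESR1, an estrogen receptor, had 62 counts in steers and 62 in bulls (-0.12, -0.65 to 0.41), so a difference was not detectable at this depth. FKBP5, a chaperone that androgens and glucocorticoids induce, had 12536 and 7815 (0.56, 0.52 to 0.60). HSD17B12, an enzyme of very long fatty acid and steroid metabolism, had 456 and 126 (1.73, 1.45 to 2.03). SRD5A1, a 5-alpha reductase, had 129 and 57 (1.06, 0.60 to 1.53). NR3C1, the glucocorticoid receptor, had 723 and 674 (-0.02, -0.17 to 0.13). The list median was 0.12 and turned to -0.12 with total counts.

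Small groups of other cell types were higher in steers. Of 49 keratins 8 were measured. All 8 lay above 0, compared with 7403 of all 14540 genes, and 6 were past 2-fold, with a median of 1.85. KRT8, a keratin of simple epithelia, had 148 counts in steers and 7 in bulls (4.28, 3.20 to 5.62), and KRT7 had 74 and 1 (6.09, 3.56 to 11.41). KRT8 and KRT7 entered the comparison only through their counts in steers, which favoured a ratio above 0. KRT19 and KRT18 would have entered on their counts in bulls alone, with 102 and 19 counts for KRT19 and 77 and 20 for KRT18. EPCAM, which defines epithelia, had 8 and 0 and was not measured. MBP, a myelin protein, had 162 counts in steers and 64 in bulls (1.22, 0.79 to 1.66), and 3 of 8 Schwann cell genes were higher with 0 lower. Vessels were level, with 0 of 12 endothelial genes past 2-fold, as for VWF with 3499 and 3664 counts (-0.19, -0.26 to -0.12).

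Large families with broad roles lay near the median of all genes. Of 250 zinc finger genes with ZNF symbols 7 were higher and 13 lower, with a median of 0.02. Of 218 solute carriers 18 were higher and 23 lower, also with a median of 0.02. Genes with LOC symbols, which have no settled name, numbered 2165 and had 237 higher and 295 lower. Olfactory receptors, which are expressed mainly in the nose, had 0 of 176 genes measured.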

How the data were processed

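Groups were taken from the treatment in the labels, castrated or intact. The authors trimmed adaptors and low-quality reads, used MapSplice to align the remainder to a bovine genome and deposited raw counts per gene, without normalization. The labels' processing notes also name BWA, which the authors used for small RNA reads, and GRCh37.p13, a human build whose use is not given. How reads were counted, and whether strand was used, is not given in the sources used here, so overlapping or antisense genes and close copies are uncertain. The 4 miRNA libraries were not analysed here, and the authors' test, EBSeq, was not repeated.

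Genes with a sum of 10 or more counts were kept. Counts were scaled by median of ratios in numpy 2.4.6, and a gene with a 0 got a prior of 0.5 counts. Intervals are 95% Clopper-Pearson intervals from scipy 1.17.1 and cover counting error only. Folds against 0 are bounds against 3 counts in the library, without the error of the other count. With 1 pooled library a side no p-value was given. An exact test of edgeR 4.0.16 (R 4.3.3) with an assumed spread served as an alternative. The ratios, intervals and calls were tested on simulated data.

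The 24 gene lists and 54 symbol families were chosen with earlier results of these data known. A further 4 lists, of late spermatid, spermatogonium and meiosis, Leydig and Sertoli cell, and tendon and cartilage genes, were added once counts were known, and some family patterns were narrowed then. Named genes were the 15 with most counts per pool, the 3 highest and 3 lowest ratios of each abundance class clear of 2-fold, members of the lists and of the stems with the 5 highest and 5 lowest medians, and the 5 with most counts on each side among those counted in 1 pool alone. Members of families and genes of the Y chromosome were named after their values were seen. Of the measured symbols, 11937 are current and 820 older names in a RefSeq table (ARS-UCD2.0). A spreadsheet had turned 20 of the symbols into dates. No gene sequence was used here, so a planned description of promoter motifs was not run. The values of some single genes are left out.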

Additional observations from a re-analysis of the deposited data

How the results depend on the processing

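Counts past 2-fold depended on the filter and on how much spread between pools was assumed. A minimum sum of 1 gave 2317 genes higher and 2912 lower in steers, and one of 100 gave 345 and 698, since more or fewer genes were tested. Asking for the whole interval beyond 2-fold left 376 and 772. An edgeR exact test at an adjusted p under 0.05, with an assumed biological coefficient of variation of 0.2, called 398 and 818, and with 0.4 it called 53 and 100. That coefficient is an assumption, as no replicate measures it. With total counts the higher genes fell to 131 at 100 to under 1000 counts, 52 at 1000 to under 10000 and 11 at 10000 or more. The other class counts, the counts with a minimum sum of 20, and all counts with TMM factors, upper quartile, totals without the 20 largest genes of either pool and without the late spermatid genes (chosen after seeing the data), stayed within 1.5 times. Genes holding 50% of counts became 495 in steers and 599 in bulls without the 20 largest. The median of fatty acid oxidation turned to -0.22 with total counts and -0.11 without the 20 largest genes in the totals, and that of steroid hormone genes to -0.12 and -0.013. The other list medians kept their sign under each scaling, with a prior of 5 counts and, for the 24 lists with genes enough, with a minimum sum of 100. No paired analysis was possible because each group had 1 library. Depth limits genes of 10 to 29 counts, where the median half-width of the interval was 1.76 (log2).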

Other observations

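Genes of tendon and cartilage, a list written after the counts had been seen, were lower in 6 of 11 measured and higher in 0, with a median log2 ratio of -1.19. TNMD, tenomodulin, a membrane protein of tendon cells, had 58 counts in steers and 696 in bulls (-3.71, -4.12 to -3.32). MKX, a transcription factor of tendon, had 467 and 382 counts (0.17, -0.03 to 0.37), and ACAN, the large proteoglycan of cartilage, had 1556 and 825 (0.79, 0.67 to 0.92). Of the 11 genes measured 8 lay below 0 and 3 above, so most but not all of the list was below 0. Smooth muscle and pericyte genes had 1 of 10 lower, DES, with 3721 and 8207 counts, a gene that skeletal muscle also expresses. Of 4 measured genes of lymph node stroma 1 was higher and 1 lower.

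The following genes were chosen after their values were seen. TTR, the carrier of thyroid hormone and retinol-binding protein, had 339 counts in steers and 22 in bulls (3.82, 3.20 to 4.52). NAGLU, a lysosomal glucosaminidase, had 226 and 6 (5.11, 3.97 to 6.57). MSTN, myostatin, the inhibitor of muscle growth, had 1 and 18 (-4.29, -9.67 to -1.63), a ratio that rests on a single read in steers. NDUFA4L2, which hypoxia induces, had 512 and 144 (1.71, 1.44 to 1.98), while the other genes with NDUFA symbols and over 100 counts in each pool were within 2-fold.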
